A study of Callithrix jacchus with 20 samples.

Results

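The 3 caudal-type homeobox genes CDX1, CDX2 and CDX4 of the common marmoset were followed through an in vitro route to primordial germ cell-like cells. They were found by gene symbol, and all 3 were present among the 25102 genes that had at least 1 read. All 3 also passed the filter on low counts, as 15797 genes did.

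RNA-seq of marmoset iPSCs and of cells made from them covered 10 conditions with 2 biological replicates each. The study names DPZ_cjiPSC#2, a line reprogrammed from fibroblasts, as the one used unless it states otherwise. It adapted further lines to TESR medium, and the sample titles name no line. cjiPSCs were grown without feeders in TESR medium, a medium used for human iPSCs, or in cjPSCM, an expanded-potential stem cell medium supplemented with TGFβ and FGF2. Cells from either medium were turned into precursors of mesendoderm (pre-ME) in 24 h with 3 µM CHIR, a GSK3 inhibitor that switches on WNT signalling, either with 100 ng/ml activin A (pre-ME + ActA) or without it (pre-ME − ActA). All pre-ME therefore received CHIR, and there was no pre-ME without it. The recipe of cjPSCM also holds CHIR at a lower dose, with the WNT inhibitor IWR-1 and LIF. For TESR medium the study lists no such additions. Cells in cjPSCM were thus under CHIR and IWR-1 before induction, and the part of each component in differences between the media was not tested. Pre-ME of the cjPSCM cultures was then aggregated into embryoid bodies with BMP4, LIF, SCF and EGF. On day 4, cells positive for both surface markers of the sort (cjPGCLCs) and cells negative for both (somatic cells) were collected, so that cells with a single marker are in neither population. Integrin α6 (the gene ITGA6) is one marker in all sources, and the other is CXCR4 in the study's methods and EpCAM in the sample titles. This gives cjPGCLCs + ActA and − ActA and somatic cells + ActA and − ActA, named after the pre-ME they came from.

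CDX proteins are homeodomain transcription factors of the ParaHox group, relatives of the HOX genes. In the vertebrate embryo they are switched on at the posterior end of the primitive streak, where WNT signalling induces them, and they in turn help to activate HOX genes of the trunk and to keep the tail bud growing. CDX2 is also a factor of the trophectoderm and, together with CDX1, of the adult intestinal epithelium, whereas CDX4 is known from the posterior embryo and from blood progenitors.

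Between 4784964 and 22067099 reads per library were counted on genes, so that 3 counts, the smallest level treated here as a signal, stood for 0.136 to 0.627 CPM (counts scaled to the library total). Levels are the authors' normalised counts, in which each raw count is divided by a size factor of its library, and are given as mean ± SD of 2 libraries. With so few libraries per condition, ranges that do not overlap are a description. The libraries were whole populations of cells, so that fewer cells with a transcript and less transcript per cell cannot be told apart. The TESR pre-ME libraries bear sample numbers in a block apart from all others and held 18858625 to 22067099 reads on genes. Those of cjPSCM pre-ME held 8193936 to 17491325. Sample titles give no batch, so differences between TESR pre-ME and other conditions cannot be told apart from differences between these sets of libraries. ITGA6, CXCR4 and EPCAM, the genes of the markers that either source names for the sort, were all called higher in cjPGCLCs than in somatic cells. Their summed level was 2953 to 5249 against 350 to 434. The cells were sorted by such markers, so these differences reflect the sort and do not show what the cells are. Of 6 germ cell markers, SOX17, TFAP2C, NANOS3 and DPPA3 were called higher in cjPGCLCs under both conditions, and PRDM1 and KIT were not. Of all genes, 1.41% with ActA and 2.39% without were called higher in this comparison. The pair of cjPSCM cjiPSC libraries stood apart from each other at several caudal genes, such as EVX1 with 10 and 58 reads and NKX1-2 with 24 and 137, and results that use them were repeated without either one.

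CDX1 was highest in pre-ME, and its condition means ranged from 1.63 to 899 normalised counts. In cjiPSCs in TESR medium it had 18.2 and 16.4 normalised counts in the 2 libraries (17.3 ± 1.27), and in cjPSCM 3.77 and 1.48 (2.63 ± 1.62). Pre-ME of TESR cultures held 727 and 1028 with ActA (877 ± 212) and 860 and 937 without (899 ± 54.4). Pre-ME of cjPSCM cultures held 678 and 449 with ActA (563 ± 161) and 199 and 147 without (173 ± 37.2). Both TESR pre-ME conditions thus overlapped at the top, followed by the 2 cjPSCM pre-ME conditions, which lay apart from them and from each other. On day 4, CDX1 was at 44.0 and 28.4 in cjPGCLCs − ActA (36.2 ± 11.1), at 18.6 and 11.4 in cjPGCLCs + ActA (15.0 ± 5.10), at 9.22 and 7.74 in somatic cells − ActA (8.48 ± 1.05) and at 1.77 and 1.49 in somatic cells + ActA (1.63 ± 0.198). The last value rested on 1 read in each library. Its range overlapped that of the cjPSCM cjiPSCs, and cjPGCLCs + ActA overlapped the TESR cjiPSCs.

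CDX2 followed a similar order, with the pre-ME of TESR cultures on top. It had 445 and 373 normalised counts in TESR pre-ME + ActA (409 ± 51.2), 336 and 213 in TESR pre-ME − ActA (274 ± 86.9), 197 and 139 in cjPSCM pre-ME + ActA (168 ± 40.9) and 27.7 and 29.7 in cjPSCM pre-ME − ActA (28.7 ± 1.42). Both libraries of the last of these lay below those of TESR cjiPSCs, which held 42.4 and 31.3 (36.8 ± 7.88) before any induction. In cjPSCM cjiPSCs a single CDX2 read was found in both libraries together. The sorted cells had 25.8 and 20.5 in cjPGCLCs − ActA (23.2 ± 3.77), 3.38 and 14.2 in cjPGCLCs + ActA (8.80 ± 7.66), 2.31 and 6.19 in somatic cells − ActA (4.25 ± 2.75) and 3.54 and 2.98 in somatic cells + ActA (3.26 ± 0.396). The last 3 of these followed each other with overlapping ranges, and all other neighbours in the order of the 10 conditions lay apart.

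CDX4 had a different order, in which the somatic cells of day 4 stood as high as any pre-ME. It was at 56.7 and 76.0 normalised counts in somatic cells + ActA (66.3 ± 13.7), at 46.1 and 74.3 in somatic cells − ActA (60.2 ± 19.9), at 47.6 and 72.7 in TESR pre-ME + ActA (60.2 ± 17.7) and at 65.8 and 51.5 in TESR pre-ME − ActA (58.6 ± 10.2). Each of these overlapped with the next. Next by mean came cjPSCM pre-ME + ActA with 47.6 and 49.2 (48.4 ± 1.13), whose range overlapped those of TESR pre-ME + ActA and of somatic cells − ActA. Then came cjPGCLCs + ActA with 17.7 and 31.3 (24.5 ± 9.57), cjPSCM pre-ME − ActA with 21.8 in both libraries (21.8 ± 0.0123) and cjPGCLCs − ActA with 9.87 and 25.2 (17.5 ± 10.8), and these 3 overlapped. cjiPSCs were at the bottom in both media, where TESR libraries had 6 and 0 reads and cjPSCM libraries 1 and 0.

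**Figure D1:**
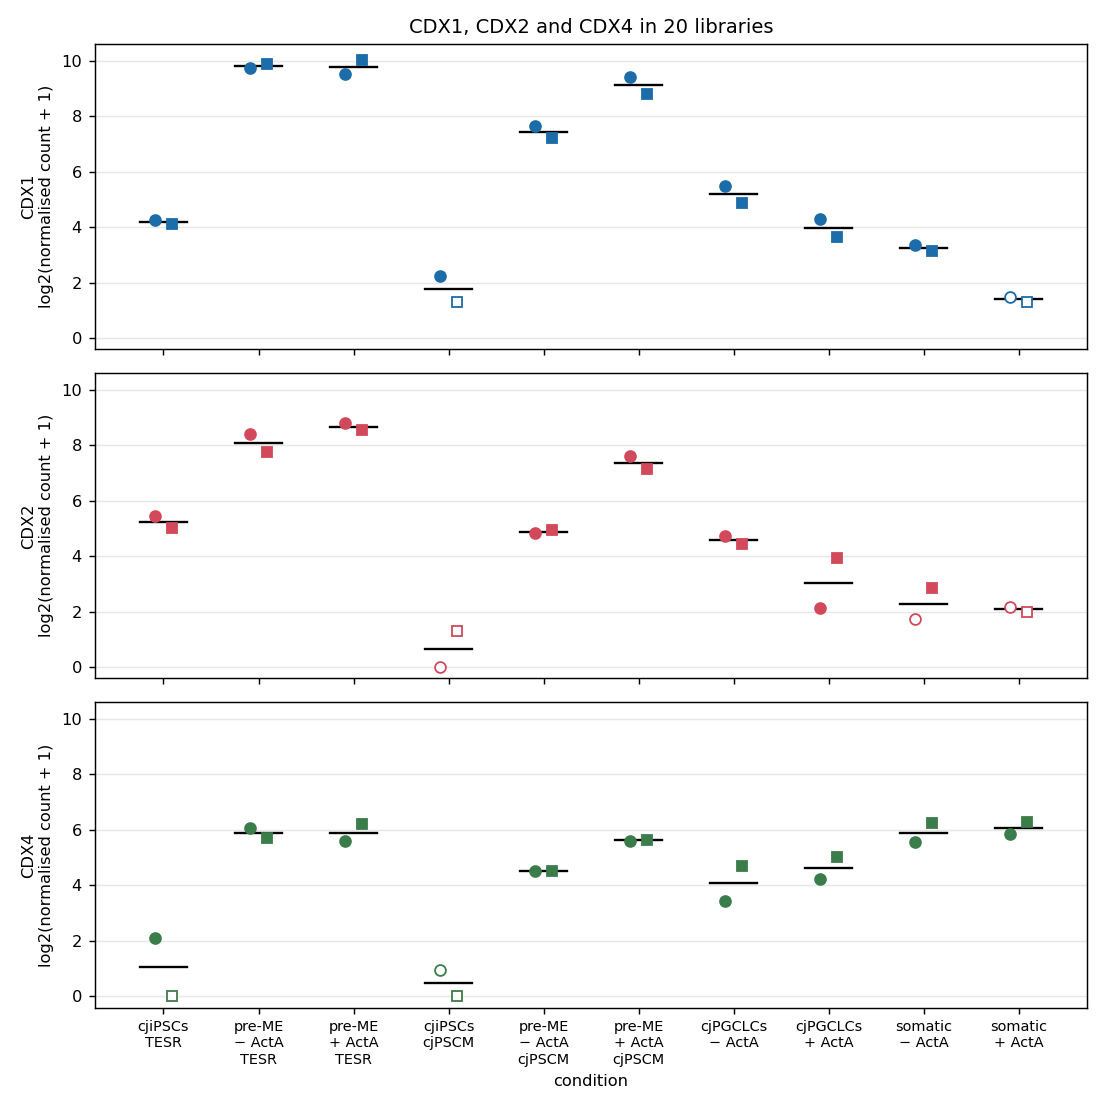
Levels of CDX1, CDX2 and CDX4 (y axes, log2 of the normalised count + 1) in the 10 conditions (x axis), with replicate 1 as a circle, replicate 2 as a square, a line at the mean of the 2 plotted log2 values, and open symbols for libraries with 3 reads or fewer. CDX1 and CDX2 had their highest levels in pre-ME and were lower on day 4. The exception was CDX2 without ActA, at 28.7 normalised counts in cjPSCM pre-ME and 23.2 in cjPGCLCs. CDX4 in somatic cells (60.2 and 66.3 normalised counts) was as high as in TESR pre-ME (58.6 and 60.2).

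The make-up of the CDX reads changed along the route. Because the share of each gene among all CDX reads depends on transcript length, shares were compared only between conditions, each with a 95% Wilson interval that covers counting error only. In TESR cjiPSCs CDX2 made up 77 of 116 CDX reads in replicate 1 (66.4%, interval 57.4 to 74.3) and 21 of 32 in replicate 2 (65.6%, 48.3 to 79.6). In TESR pre-ME its share was between 17.7% and 36.5%, and in cjPSCM pre-ME between 11.1% and 21.8%. CDX2 thus held the largest share of reads before induction in TESR medium, and CDX1 after it, with 59.6% to 80.1% in the 8 pre-ME libraries. CDX4 held 3.90% to 11.0% of the CDX reads in pre-ME, 12.4% to 55.0% in cjPGCLCs and 80.0% to 94.4% in somatic cells. Of the somatic cells, replicate 2 of the + ActA condition had 51 CDX4 reads among 54 (94.4%, 84.9 to 98.1), and replicate 1 of the − ActA condition had 20 among 25 (80.0%, 60.9 to 91.1). The lowest share in somatic cells was above the highest in cjPGCLCs, 22 of 40 reads (55.0%, 39.8 to 69.3), although the intervals of these libraries overlapped. Such shares were not tested between conditions.

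**Figure D2:**
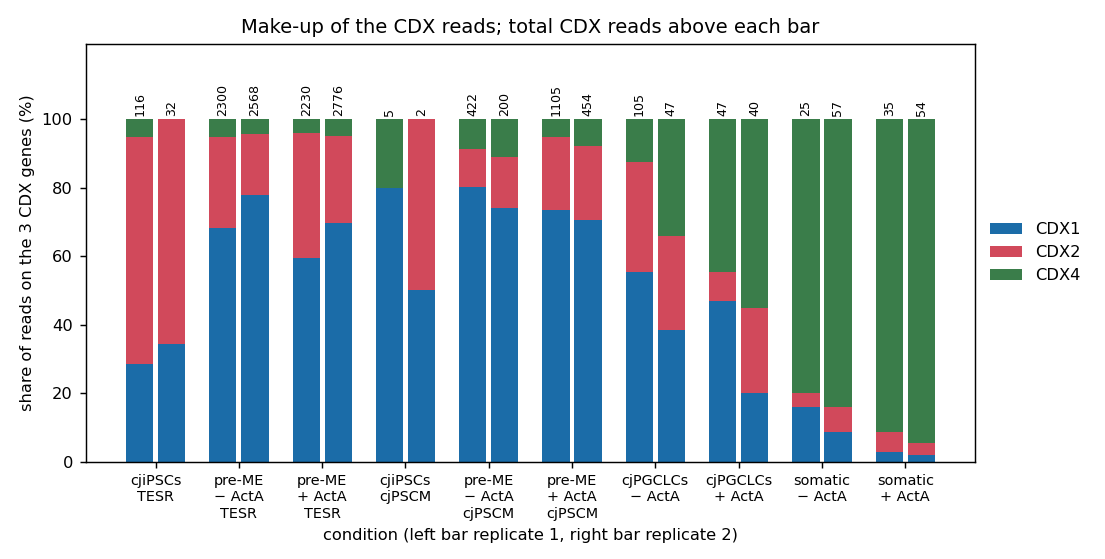
Share of each gene among the reads on CDX1, CDX2 and CDX4 (y axis, percent) in every library, grouped by condition (x axis), with the number of CDX reads above each bar. CDX2 leads in TESR cjiPSCs, CDX1 in all 8 pre-ME libraries and CDX4 in all 4 libraries of somatic cells, and the cjPSCM cjiPSC bars rest on 5 and 2 reads.

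Differences were tested with edgeR on the raw counts of all 20 libraries. A gene is called when its adjusted p is under 0.05 and its log2 fold change is beyond 2, the thresholds of the study. Where both libraries of a condition had 3 reads or fewer, the ratio of the counts is given with a 95% counting interval in place of a fold change.

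The first comparison asks how the culture medium sets the starting level. CDX1 and CDX2 were lower in cjPSCM than in TESR medium, by a log2 fold change of −2.59 (SE 0.60, adjusted p = 0.0027) for CDX1. CDX2 had 98 reads over the TESR libraries and 1 over the cjPSCM libraries, a depth-corrected ratio of 68.4 (interval 12.0 to 2730, adjusted p = 2.97e-05). Over all genes tested, 3.67% were called lower in this direction, and 2 of the 3 CDX genes were. CDX4, with 6, 0, 1 and 0 reads, was not detectably different at this depth (adjusted p = 0.311). In a fit restricted to the 4 cjiPSC libraries, CDX1 missed the threshold (log2 fold change −2.62, adjusted p = 0.0554).

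Induction to pre-ME raised all 3 genes from both media, with ActA and without. In TESR cultures with ActA the log2 fold changes over cjiPSCs were 5.64 for CDX1 (SE 0.30, adjusted p = 2.49e-09), 3.43 for CDX2 (SE 0.34, adjusted p = 1.97e-06) and 4.63 for CDX4 (SE 0.60, adjusted p = 2.62e-05). Without ActA they were 5.67 (SE 0.30, adjusted p = 1.65e-09), 2.85 (SE 0.34, adjusted p = 9.88e-06) and 4.59 (SE 0.60, adjusted p = 2.76e-05). In both cases 3 of 3 CDX genes were called higher, against 4.44% of all genes with ActA and 4.54% without. The size of the CDX4 change turned on replicate 1 of the TESR cjiPSCs, the only one of the 2 with CDX4 reads. Without it the log2 fold changes were 9.06 and 9.02, values that depend on the prior count because the other library had no read.

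In cjPSCM cultures the starting levels of CDX2 and CDX4 were at 1 read over both libraries, so that only wide ratios can be given. CDX1 rose by a log2 fold change of 7.58 with ActA (SE 0.40, adjusted p = 6.98e-09) and of 5.90 without (SE 0.43, adjusted p = 1.39e-07). The ratio of CDX2 was 304 with ActA (interval 54.3 to 12060, adjusted p = 9.66e-07) and 49.4 without (8.61 to 1977, adjusted p = 0.000141). For CDX4 it was 83.6 with ActA (14.6 to 3338, adjusted p = 0.000104) and 37.9 without (6.54 to 1520, adjusted p = 0.000577). All 3 genes were called higher in both comparisons, against 1.42% of all genes with ActA and 2.11% without, and these calls held with either cjPSCM cjiPSC library left out. The comparisons with and without ActA share their cjiPSC libraries.

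Whether the rise itself differed between media was tested as an interaction. With ActA, the rise of CDX2 was smaller from TESR medium than from cjPSCM (interaction −4.52 on the log2 scale, SE 0.98, adjusted p = 0.0113), where 6.20% of all genes were called by their adjusted p. The value depends on the prior count, since it rests on a single CDX2 read in cjPSCM cjiPSCs, and it was −3.35 (adjusted p = 0.0683) without replicate 1 of these and −7.20 without replicate 2. For CDX1 the interaction was −1.95 (SE 0.66, adjusted p = 0.0947). Without ActA no CDX gene passed with edgeR or DESeq2 (1 of 3 at an unadjusted p under 0.05), while 6.54% of all genes did with edgeR, and CDX2 had an interaction of −2.56 (SE 1.14, adjusted p = 0.192).

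**Figure D3:**
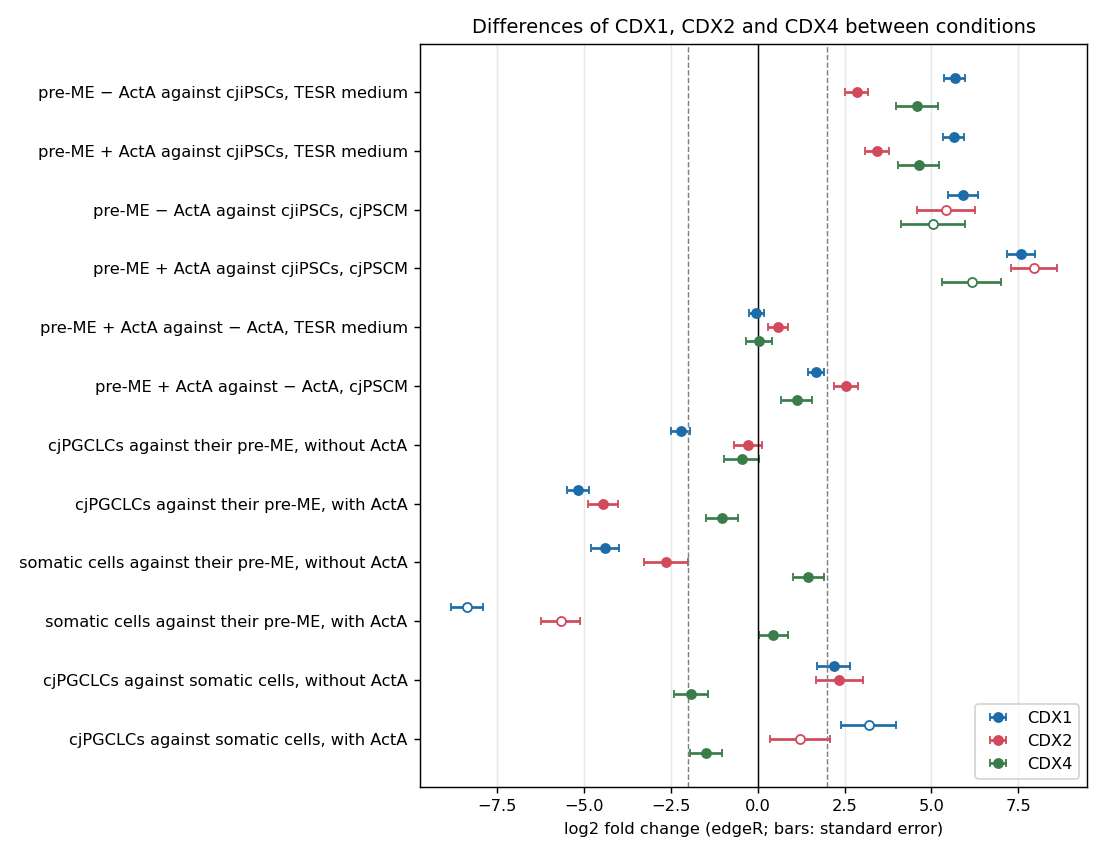
Log2 fold changes (x axis) of CDX1, CDX2 and CDX4 from edgeR in 12 comparisons (y axis), with bars for the standard error, dashed lines at the threshold of 2 either way and open circles where 1 condition had 3 reads or fewer in both libraries, so that the plotted value depends on the prior count. All 3 genes lie to the right in the 4 inductions, and in the comparisons of day 4 with pre-ME CDX1 and CDX2 lie to the left while CDX4 stays between −1.02 and 1.46.

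ActA raised CDX1 and CDX2 in pre-ME of cjPSCM cultures by adjusted p, and in TESR cultures no CDX gene passed. In cjPSCM pre-ME, CDX2 was higher with ActA by a log2 fold change of 2.54 (SE 0.35, adjusted p = 0.000116). CDX1 was higher by 1.68 (SE 0.23, adjusted p = 0.000116), which is under the threshold on the fold change, and CDX4 differed by 1.12 (SE 0.44, adjusted p = 0.0778). For each gene both libraries with ActA lay above both without. One of the 3 genes was called higher, against 1.42% of all genes. In TESR pre-ME the log2 fold changes were −0.04 for CDX1 (SE 0.21, adjusted p = 0.970), 0.58 for CDX2 (SE 0.29, adjusted p = 0.285) and 0.04 for CDX4 (SE 0.38, adjusted p = 0.982), and 0 of the 3 were called, against 1.43% of all genes called higher. By edgeR 0 of the 3 had an unadjusted p under 0.05, and DESeq2 called 0.

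The ActA effect differed between the media for CDX1, with an interaction of −1.72 on the log2 scale (SE 0.31, adjusted p = 0.0206), in a test that called 0.399% of all genes. For CDX2 the interaction was −1.97 (SE 0.45, adjusted p = 0.0650) and for CDX4 −1.09 (SE 0.58, adjusted p = 0.339). The CDX2 value passed with DESeq2 (−1.98, adjusted p = 0.00846) and with no filter on low counts (−1.93, adjusted p = 7.82e-05). The CDX1 call was lost in 5 of the 8 fits that each left out 1 library, with adjusted p between 0.0747 and 0.185 in those 5, namely without replicate 1 of cjPSCM pre-ME + ActA, replicate 2 of cjPSCM pre-ME − ActA, either replicate of TESR pre-ME − ActA or replicate 1 of TESR pre-ME + ActA.

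Set against each other directly, pre-ME − ActA from TESR cultures held more CDX1 than that from cjPSCM cultures, by a log2 fold change of 2.36 (SE 0.23, adjusted p = 2.26e-06), and more CDX2, by 3.25 (SE 0.34, adjusted p = 4.71e-06). CDX4 was higher by 1.42 (SE 0.42, adjusted p = 0.0312), short of the fold change threshold, so that 2 of the 3 genes were called, against 1.22% of all genes. With ActA the differences were 0.65 for CDX1 (SE 0.22, adjusted p = 0.0353), 1.29 for CDX2 (SE 0.30, adjusted p = 0.00483) and 0.33 for CDX4 (SE 0.40, adjusted p = 0.563). None of them was beyond 2 with edgeR or with DESeq2, 2 of the 3 had an unadjusted p under 0.05, and 1.44% of all genes were called higher.

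From pre-ME to day 4, CDX1 and CDX2 mostly fell and CDX4 was not called in any of the 4 comparisons. Pre-ME + ActA and cjPGCLCs + ActA differed by −5.16 for CDX1 (SE 0.31, adjusted p = 4.26e-09) and −4.44 for CDX2 (SE 0.44, adjusted p = 8.38e-07), against 2.22% of all genes called lower. The log2 fold change of CDX4 was −1.02 (SE 0.46, adjusted p = 0.0739). In cjPGCLCs − ActA, CDX1 fell by 2.21 on the log2 scale (SE 0.27, adjusted p = 1.07e-05), against 2.11% of genes called lower. CDX2 (−0.28, SE 0.41, adjusted p = 0.619) and CDX4 (−0.46, SE 0.50, adjusted p = 0.497) did not pass. The CDX1 value was −1.99 without replicate 1 of the pre-ME − ActA libraries, which ends the call.

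In somatic cells CDX1 and CDX2 were lower than in pre-ME under both conditions. With ActA, CDX1 had 1132 reads over both pre-ME libraries and 2 over both somatic libraries, a depth-corrected ratio of 366 (interval 101 to 3026, adjusted p = 1.54e-09), and the ratio of CDX2 was 54.2 (21.0 to 200, adjusted p = 6.39e-07). Both were called lower, against 3.01% of all genes. Without ActA the log2 fold changes were −4.39 for CDX1 (SE 0.40, adjusted p = 3.24e-07) and −2.63 for CDX2 (SE 0.64, adjusted p = 0.00349), against 2.96% of all genes called lower. The log2 fold changes of CDX4 were positive, at 0.46 with ActA (SE 0.43, adjusted p = 0.395) and 1.46 without (SE 0.45, adjusted p = 0.0157), the latter significant but under the fold change threshold.

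Between the sorted populations, CDX1 was higher in cjPGCLCs than in somatic cells, while the log2 fold changes of CDX4 were negative. Without ActA, the log2 fold change of cjPGCLCs over somatic cells was 2.18 for CDX1 (SE 0.49, adjusted p = 0.00756), 2.36 for CDX2 (SE 0.68, adjusted p = 0.0352) and −1.92 for CDX4 (SE 0.49, adjusted p = 0.0190). CDX1 and CDX2 were called higher, against 2.39% of all genes, and CDX4 was significant but not beyond the fold change threshold. With the replicate number as a block the CDX2 call was lost (2.33, adjusted p = 0.0540). With ActA, CDX1 had 30 reads in cjPGCLCs and 2 in somatic cells, a ratio of 9.82 (interval 2.49 to 84.8, adjusted p = 0.0248), and was called, against 1.41% of all genes. CDX2 had a ratio of 2.29 (0.720 to 9.56, adjusted p = 0.588) and CDX4 a log2 fold change of −1.48 (SE 0.46, adjusted p = 0.0818). No CDX gene had a sorting effect that differed with ActA (adjusted p = 1.00 for all 3, 0 with an unadjusted p under 0.05 and 0 called by DESeq2, with 0.0633% of all genes called by adjusted p).

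These differences rested on few reads and on single libraries. Without ActA the CDX2 call was lost in all 4 fits that left out 1 library (log2 fold change 1.94 to 3.32, adjusted p 0.0651 to 0.219) and the CDX1 call in 3 of 4 (1.76 to 2.39, adjusted p 0.0501 to 0.132 in those 3). With ActA the CDX1 call was lost without either somatic library or without replicate 1 of the cjPGCLCs (adjusted p 0.143 to 0.301). CDX4 − ActA passed both thresholds without replicate 1 of the somatic cells (−2.19, adjusted p = 0.0317) and without replicate 2 of the cjPGCLCs (−2.61, adjusted p = 0.0132). Single markers of other cell types were called in the same comparisons, while the summed levels of the endoderm and amnion markers overlapped between the populations. Of all genes, 1.41% with ActA and 2.39% without were called higher in cjPGCLCs. Of the endoderm markers, FOXA2 out of 3 tested was called higher in cjPGCLCs under both conditions, with a summed level of the 5 markers of 2983 to 6270 normalised counts in cjPGCLCs and 2658 to 5304 in somatic cells. That sum hides single genes. FOXA2 and TTR had no read in somatic cells + ActA, and AFP and TTR none in somatic cells − ActA. In both cjPGCLC conditions each of the 5 had reads. GATA4 and GATA6 were not called, and AFP and TTR did not pass the filter on low counts. Of the mesoderm markers, COL1A1 out of 5 tested was called lower without ActA, and the summed level of the 6 markers was 11924 to 15666 in cjPGCLCs and 17096 to 21756 in somatic cells. Of the 4 amnion markers, TFAP2B was called higher in cjPGCLCs under both conditions, by 4.99 with ActA (SE 0.71, adjusted p = 0.000451) and 3.67 without (SE 0.67, adjusted p = 0.00177), and the summed level was 1848 to 2218 in cjPGCLCs and 1549 to 2069 in somatic cells. The part of such cells in the CDX values was not tested.

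ActA in the pre-ME step left no called difference in the sorted cells. In cjPGCLCs + ActA against − ActA the log2 fold changes were −1.27 for CDX1 (SE 0.37, adjusted p = 0.0851), −1.62 for CDX2 (SE 0.53, adjusted p = 0.133) and 0.56 for CDX4 (SE 0.52, adjusted p = 0.788), where 0.380% of all genes were called either way. Without replicate 2 of the cjPGCLCs + ActA, the CDX2 value was −2.77 (adjusted p = 0.0449). By edgeR 2 of the 3 had an unadjusted p under 0.05, and DESeq2 called 0. In somatic cells the adjusted p was 1.00 for CDX1, CDX2 and CDX4 alike, 1 of the 3 had an unadjusted p under 0.05, DESeq2 called 0, and 0.00633% of all genes were called. Against the cjiPSCs in cjPSCM from which the route started, cjPGCLCs still held more of all 3 genes. The log2 fold change of CDX1 was 2.42 with ActA (SE 0.63, adjusted p = 0.00425) and 3.69 without (SE 0.53, adjusted p = 3.19e-05), and the ratios of CDX4 were 39.6 (interval 6.73 to 1599, adjusted p = 0.00028) and 25.8 (4.28 to 1054, adjusted p = 0.0012). The ratios of CDX2 were 12.9 (1.96 to 545, adjusted p = 0.0156) and 41.8 (7.15 to 1687, adjusted p = 0.000168), so that 3 of 3 genes were called higher in both cases, against 6.69% and 6.82% of all genes. With ActA, the CDX1 call was lost without replicate 1 of the cjPGCLCs (1.96, adjusted p = 0.0753), and the CDX2 call without replicate 1 of the cjiPSCs or replicate 2 of the cjPGCLCs (adjusted p = 0.19 and 0.159).

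WNT feedback targets are genes that cells switch on in answer to WNT signalling. Of the 10 tested, 8 were called higher in each of the 4 inductions and none lower, against 1.42% and 2.11% of all genes called higher from cjPSCM with and without ActA and 4.44% and 4.54% from TESR medium. LEF1, SP5, NKD1, RNF43, DKK1, NOTUM and TCF7 were among them each time, with LGR5 in the cjPSCM inductions and AXIN2 in the TESR inductions. AXIN2 in cjPSCM cultures rose by 1.61 with ActA (SE 0.14, adjusted p = 1.18e-06) and 1.33 without (SE 0.14, adjusted p = 3.68e-06), under the fold change threshold. The list had a median log2 fold change of 3.23 with ActA and 3.28 without from cjPSCM, and 4.04 and 3.62 from TESR medium, while the median of all genes lay between −0.034 and 0.028. SP5, a zinc finger factor downstream of WNT, rose by 6.72 (SE 0.28, adjusted p = 5.22e-10) in cjPSCM cultures with ActA. It went from 20.7 and 23.7 normalised counts in the cjiPSC libraries to 2743 and 1871. ActA raised NOTUM, a secreted WNT antagonist, by 2.22 (SE 0.19, adjusted p = 1.05e-06) and the WNT effector LEF1 by 2.15 (SE 0.27, adjusted p = 6.5e-05) in cjPSCM pre-ME, and in TESR pre-ME 0 of the 10 were called. Of all genes, 1.42% were called higher with ActA in cjPSCM pre-ME and 1.43% in TESR pre-ME. At such a share, 0 of 10 is not a result about this list. On day 4 SP5 was lower again, as CDX1 was, with a log2 fold change of −6.17 in cjPGCLCs + ActA (SE 0.27, adjusted p = 1.08e-10) and −6.47 in somatic cells + ActA (SE 0.29, adjusted p = 1.08e-10), while LEF1 in somatic cells − ActA was above pre-ME by 3.39 (SE 0.28, adjusted p = 1.2e-07). Of the 10, 3 were called lower in cjPGCLCs with ActA, and 1 lower and 2 higher without. In somatic cells 2 were lower with ActA, and 1 lower and 1 higher without. Of all genes, 2.22%, 2.11%, 3.01% and 2.96% were called lower in that order, and 6.15%, 5.77%, 5.29% and 4.99% higher. The summed level of the list was 7216 to 15158 normalised counts in cjPSCM pre-ME and 6006 to 10431 on day 4. In cjPSCM cjiPSCs it was 1184 to 1515.

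Of 17 tested genes of the posterior streak and tail bud, 4 were called higher in cjPSCM pre-ME + ActA (EVX1, EOMES, FGF8 and NKX1-2), 2 higher and 1 lower in cjPSCM pre-ME − ActA, 8 higher in TESR pre-ME + ActA and 6 higher in TESR pre-ME − ActA. Of all genes, 1.42%, 2.11%, 4.44% and 4.54% were called higher in these comparisons. The growth factor gene FGF8 rose by 4.56 in cjPSCM cultures with ActA (SE 0.35, adjusted p = 5.23e-07), and the retinoic acid-degrading enzyme gene CYP26A1 fell by 3.33 in those without (SE 0.67, adjusted p = 0.00124). TBXT, the streak gene that encodes BRACHYURY, was nearly undetected wherever the cells came from cjPSCM. It had no read in either cjiPSC library, 2 and 0 in pre-ME + ActA and 1 and 1 in pre-ME − ActA, in libraries with 148 to 812 reads on CDX1. In TESR pre-ME + ActA it had 101 and 60 reads and was called higher than in cjiPSCs, by 2.64 (SE 0.54, adjusted p = 0.00222). The median log2 fold change of the streak genes was 1.29 in cjPSCM pre-ME + ActA (0.90 with genes that had no read in a condition set to 3 counts there), 0.43 without ActA (0.31), and 1.17 and 0.99 in TESR pre-ME with and without ActA, beside medians of all genes between −0.034 and 0.028.

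HOX genes were counted as 37 with reads, of which 20 were tested. They rose in 10 cases in cjPSCM pre-ME + ActA and in 5 without ActA, and in TESR pre-ME in 14 cases with ActA and 8 without, against 1.42%, 2.11%, 4.44% and 4.54% of all genes called higher. With genes that had no read in a condition set to 3 counts there, the median log2 fold changes were 0.97, 0, 2.89 and 1.77 in that order. The central HOX genes of paralogue groups 5 to 9 include known CDX targets. Of their 7 tested members, HOXA7 and HOXA9 were called higher in cjPSCM pre-ME + ActA and none without ActA. In TESR pre-ME, HOXA7, HOXA9, HOXB6, HOXC6 and HOXD9 were called higher with ActA and HOXA9 alone without it. HOXA9 had 243 and 178 normalised counts with ActA and 2.95 and 0.99 without, a log2 fold change of 6.51 (SE 0.43, adjusted p = 1.73e-07). In TESR pre-ME HOXA9 was at 329 and 302 with ActA and 9.88 and 13.1 without (4.76, SE 0.33, adjusted p = 2.72e-07). HOXA9 was thus higher with ActA than without in both media, and in TESR pre-ME − ActA it was still above the cjiPSCs, by 2.23 (SE 0.54, adjusted p = 0.00429). Any part of the CDX genes in the HOX levels was not tested. On day 4 HOXA9 was at 66.8 and 59.7 in cjPGCLCs + ActA and at 113 and 56.6 in somatic cells + ActA, and was not called between them. Without ActA it was at 5.32 and 3.15 in cjPGCLCs and at 27.7 and 35.6 in somatic cells. There it was called lower in cjPGCLCs, the opposite direction to CDX1 and CDX2.

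GSX2, a ParaHox gene like the CDX genes, was found in pre-ME + ActA and almost nowhere else. It had 56 and 24 reads in the cjPSCM libraries and 56 and 97 in the TESR libraries of this condition, and 1 read in the other 16 libraries together. It was called higher with ActA in both media (adjusted p = 0.000519 and 0.000322). GSX1 and PDX1, the other ParaHox genes, lie beside CDX2 in the RefSeq marmoset annotation and did not pass the filter on low counts.

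**Figure D4:**
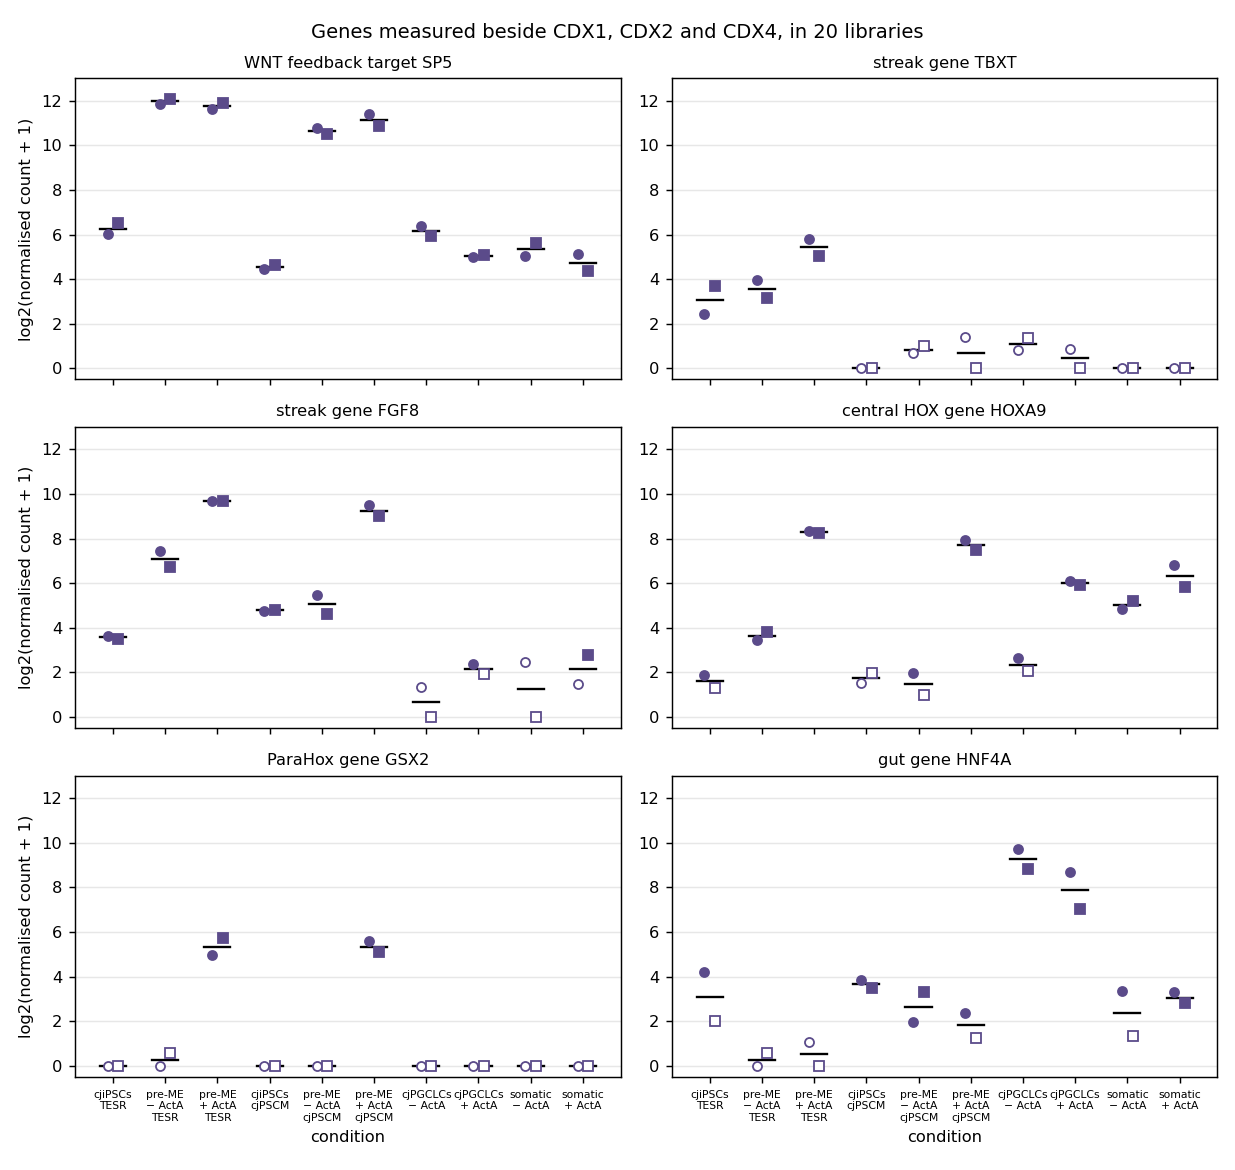
Levels (y axes, log2 of the normalised count + 1) of 6 genes of the lists described beside the CDX genes, in the 10 conditions (x axes), drawn with replicate 1 as a circle, replicate 2 as a square, a line at the mean of the log2 values and open symbols at 3 reads or fewer. SP5 is high in all 8 pre-ME libraries, FGF8, HOXA9 and GSX2 are highest in pre-ME + ActA of either medium, TBXT stays at 2 reads or fewer wherever cells came from cjPSCM, and HNF4A is highest in cjPGCLCs.

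Genes that CDX factors regulate in the intestine gave little signal. Of 12 listed, 8 had reads and 3 passed the filter (LCT, VIL1 and HNF4A). LCT, the lactase gene, was called higher in TESR pre-ME − ActA than in cjiPSCs, by 2.55 (SE 0.43, adjusted p = 0.000248). HNF4A was called lower there (32 and 2 reads in cjiPSCs, 0 and 1 in pre-ME, adjusted p = 0.00647). Both calls were also made in TESR pre-ME + ActA. In cjPSCM cultures 0 of the 3 were called in either induction. Of all genes, 4.44% and 4.54% were called higher in the TESR inductions with and without ActA, and 1.42% and 2.11% in those from cjPSCM. HNF4A, a factor of liver, gut and early endoderm, was higher in cjPGCLCs than in somatic cells, by 7.09 without ActA (SE 0.79, adjusted p = 1.84e-05) and 5.24 with it (SE 0.73, adjusted p = 0.000377). The actin-bundling gene VIL1 was called higher without ActA (37 and 11 reads in cjPGCLCs, 1 and 2 in somatic cells, adjusted p = 0.00726).

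Among 12 tested genes of amnion and trophoblast, in which CDX2 is also known, 0 rose in cjPSCM pre-ME + ActA and 1 in cjPSCM pre-ME − ActA (TFAP2A, by 2.96, SE 0.47, adjusted p = 0.000189). TFAP2B was called lower in both, with a log2 fold change of −2.36 with ActA (SE 0.61, adjusted p = 0.0138) and −2.61 without (SE 0.60, adjusted p = 0.00294). Of all genes, 1.42% with ActA and 2.11% without were called higher. In TESR pre-ME, HAND1 was called higher and TFAP2B lower with ActA, and TFAP2B and IGFBP3 lower without. There 4.44% and 4.54% of all genes were called higher. Of 15797 genes tested, 483 and 832 were called in either direction from cjPSCM with and without ActA. From TESR medium 1100 and 1241 were. On day 4 the genes of this list were called higher than in pre-ME in 8 cases in cjPGCLCs + ActA, 10 in cjPGCLCs − ActA, 7 in somatic cells + ActA and 5 in somatic cells − ActA, in conditions where CDX1 fell each time. Their median log2 fold changes were 3.51, 3.14, 2.51 and 1.77. Of all genes, 6.15%, 5.77%, 5.29% and 4.99% were called higher, and the medians of all genes were at most 0.039. HAND1, a factor of amnion and extraembryonic mesoderm, was higher in somatic cells − ActA than in pre-ME, by 8.72 (SE 0.35, adjusted p = 3.14e-11). The trophoblast gene ELF5 had no read in either library of 8 of the 10 conditions.

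The genes whose levels were most like those of a CDX gene were looked up by Pearson's r of log2(normalised count + 1) over the 20 libraries, among 12500 named genes with a mean of at least 10. The libraries share conditions and sequencing depth, so that r is a description. Most of the genes named depend on the pseudocount of 1, since with a pseudocount of 10 only 2, 2 and 1 of the 5 for CDX1, CDX2 and CDX4 were still among the 5 most like. For CDX1 they were SP5 (r = 0.966), CDX2 (0.924), PLD6 (0.916), OGG1 (0.905) and PUS7 (0.903). For CDX2 they were CDX1 (0.924), TMEM150A (0.913), METTL1 (0.910), ERICH2 (0.904) and PKP4 (0.899). CDX1 and CDX2 were thus among each other's nearest genes, and most of the rest of these spanned a narrow range of levels, as OGG1 with 51.3 to 116. For CDX4 they were PAX3 (0.927), ZNF766 (0.889), ZNF471 (0.887), CHL1 (0.885) and PJVK (0.881). PAX3, a paired-box factor of dorsal neural tube, neural crest and somite, had a mean of 2.15 normalised counts in cjPSCM cjiPSCs and 6.12 in TESR cjiPSCs, and of 145 and 191 in somatic cells − ActA and + ActA. CDX4 was far less like the other CDX genes, with r = 0.424 to CDX1 (rank 2806) and 0.392 to CDX2 (rank 3021).

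**Figure D5:**
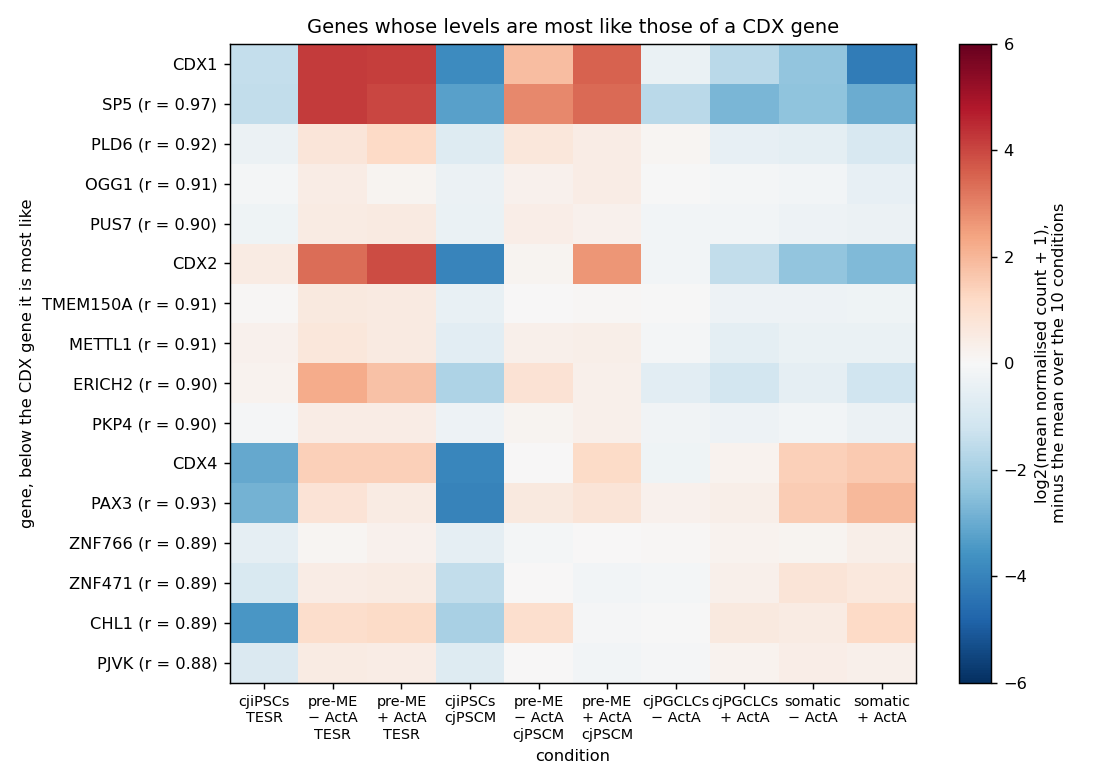
Levels of each CDX gene and of the genes most like it (rows, with Pearson's r over 20 libraries) in the 10 conditions (columns), as log2(mean normalised count + 1) minus its mean over the conditions. CDX1, SP5 and CDX2 share the high pre-ME and low day 4 levels, apart from CDX2 without ActA, whose cjPSCM pre-ME lies near its cjPGCLCs. CDX4 and PAX3 are low in cjiPSCs and high in somatic cells.

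The protein-coding neighbours of the CDX genes were taken as the nearest pair on either side in the RefSeq table. Only PDGFRB, SLC6A7, CAMK2A, CHIC1 and LOC100401987 among them were tested. Of these, SLC6A7 alone was called higher in an induction, and LOC100401987, beside CDX4, was called in none. Of all genes, 1.42% and 2.11% were called higher from cjPSCM with and without ActA, and 4.44% and 4.54% from TESR medium. Beside CDX1, SLC6A7, a proline transporter gene, was low throughout (0 to 19.2 normalised counts) and was called higher in TESR pre-ME + ActA (adjusted p = 0.0256) and − ActA (adjusted p = 0.00117). CAMK2A on the same side was called lower in both (adjusted p = 1.97e-06 and 3.76e-05), and in cjPSCM cultures neither was called. PDGFRB on the other side rose in cjPSCM pre-ME by 1.75 with ActA and 1.68 without (adjusted p = 0.00111 and 0.000646), under the fold change threshold, and in TESR pre-ME its log2 fold changes were −0.74 and −0.30 (adjusted p = 0.0589 and 0.439). CHIC1, next to CDX4, rose by 1.13 and 1.43 in TESR pre-ME with and without ActA (adjusted p = 0.00361 and 0.000549) and by 1.34 in cjPSCM pre-ME − ActA (adjusted p = 0.00146), under the fold change threshold, and had a log2 fold change of 0.11 in cjPSCM pre-ME + ActA (adjusted p = 0.832). None of the neighbours of CDX2 passed the filter on low counts.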

How the data were processed

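RNA-seq libraries were made by the authors from poly(A) RNA of 20 samples of marmoset iPSCs and cells made from them (10 conditions, 2 biological replicates each, grouped by the sample labels). Per the study's methods and the submitters' processing notes, reads were checked with FastQC 0.11.8, mapped to calJac4 with STAR 2.7.0a and counted with HTSeq 0.11. The annotation release and strand setting are not given in the sources used here, so genes that overlap could share reads. The authors deposited raw counts per gene and a normalised signal, in which DESeq2 size factors scale each library. Reads outside genes, 10.6% to 23.2% of each library's total, were left out.

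Raw counts of all 20 libraries were tested in 1 model by the quasi-likelihood test of edgeR 4.0.16, run in R 4.3.3 (TMM normalisation, a low-count filter that left 15797 of 25102 genes, 10 residual degrees of freedom, Benjamini-Hochberg adjustment over all genes tested), in 19 comparisons of conditions and 4 interactions. Calls needed a log2 fold change beyond 2 as well as an adjusted p below 0.05, and for interactions the adjusted p alone. Where both libraries of a condition held 3 counts or fewer, the depth-corrected ratio of summed counts is given with an exact 95% interval for counting error. Interval and floor cover counting error only. Replicates are labelled as biological. The scripts were tested on simulated counts. The members and the gene lists were chosen with earlier results of these data known, and 1 listed gene is not reported here. Named are the members, the genes of the lists (up to 3 each way by log2 fold change in a comparison described, with others where a count of 5 or fewer or a described pattern called for them, chosen after their values were seen, such as TBXT, HOXA9, LEF1 and HNF4A), the 5 genes most like each member, and the neighbours of each member in the RefSeq table, which is of another assembly than calJac4 and served for names and order only. Sequences of the CDX genes were not used here.

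Alternatives were DESeq2 1.42.0, DESeq2's size factors, no filter, a filter at a mean of 1 CPM, only the libraries compared, the replicate number as a block, and each library left out in turn. Fits with crossed replicate numbers were added after the data were seen.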

Additional observations from a re-analysis of the deposited data

Results flagged for a closer look

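The effect of ActA on CDX1 in pre-ME differed between cultures of the 2 media by −1.72 on the log2 scale, as tested by the interaction (SE 0.31, adjusted p = 0.0206). It was 1.68 in cjPSCM cultures and −0.04 in TESR cultures. The call was lost in 5 of the 8 fits that each left out 1 library (adjusted p 0.0747 to 0.185). CDX1 reached 727 to 1028 normalised counts in all 4 TESR pre-ME libraries.

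The rise of CDX2 from cjiPSCs to pre-ME + ActA differed between the media by −4.52 on the log2 scale (SE 0.98, adjusted p = 0.0113), also by the interaction. Its size rests on 1 CDX2 read in the cjPSCM cjiPSC libraries.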

How the results depend on the processing

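Of 405 values of the CDX genes under the alternatives other than leaving out a replicate, 399 kept their direction and their side of the threshold, among them all with DESeq2's size factors and with the filter at a mean of 1 CPM. The exceptions, whose cause was not tested, were CDX1 between cjiPSCs of the 2 media (−2.62) and between cjPGCLCs + ActA and cjiPSCs (2.45), both not called on the 4 libraries compared only, CDX2 between cjPGCLCs and somatic cells − ActA under the replicate block, CDX2 in the ActA by medium interaction with DESeq2 (−1.98) and with no filter (−1.93), and CDX1 in the medium interaction of the induction with ActA, which passed with no filter (−1.92). DESeq2 called 1 more of the CDX values and lost none. With a pseudocount of 10, 2, 2 and 1 of the 5 genes most like CDX1, CDX2 and CDX4 were shared with those named.

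The count of all genes called moved by over 1.5 times on the 4 libraries only for the cjPSCM inductions, to 107 from 483 with ActA and to 342 from 832 without, and for cjPGCLCs + ActA against cjiPSCs, to 949 from 1502. For ActA in somatic cells it was 1, and 3 with DESeq2, 10 with no filter and 5 on the 4 libraries. The ActA by medium interaction called 63, with DESeq2 334 and with no filter 735, and the sorting by ActA interaction 10, with DESeq2 93, with no filter 269 and under the replicate block 54. With no filter the medium interactions of the induction called 1744 (from 979) with ActA and 1776 (from 1033) without.

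Same-numbered libraries deviated together with a correlation between −0.193 and 0.234, so the numbers were not taken as pairs. The replicate block ended the call of CDX2 between cjPGCLCs and somatic cells − ActA (2.33, adjusted p = 0.0540), and changed no other CDX call. Crossed pairs, chosen after seeing the data, called 473 and 803 genes in the cjPSCM inductions with and without ActA and 1243 between somatic cells − ActA and pre-ME, against 491, 838 and 1240 with the block as numbered.

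With 1 library left out at a time, 10 of 69 CDX results changed side of the threshold and 12 changed sign, none of the latter among the 35 called. The lone library of a condition was then assumed to vary like the others. Between cjPGCLCs and somatic cells the adjusted p of CDX1 + ActA ran from 0.0249 to 0.301, and the log2 fold changes − ActA from 1.76 to 2.39 (CDX1), 1.94 to 3.32 (CDX2) and −2.61 to −1.27 (CDX4). From pre-ME to cjPGCLCs − ActA they ran from −2.64 to −1.99 (CDX1) and −1.17 to 0.18 (CDX4), from cjiPSCs to cjPGCLCs + ActA from 1.96 to 3.35 (CDX1), with an adjusted p of 0.00373 to 0.19 for CDX2, and between cjPGCLCs + and − ActA from −2.77 to −0.74 (CDX2) and −0.088 to 1.26 (CDX4). ActA in TESR pre-ME gave −0.30 to 0.19 (CDX1) and −0.30 to 0.31 (CDX4), TESR against cjPSCM pre-ME + ActA −0.0024 to 0.61 (CDX4), and ActA in somatic cells −0.16 to 0.54 (CDX4) and an adjusted p of 1.00 throughout for CDX2. CDX4 between the cjiPSC media had an adjusted p of 0.163 to 0.616. Interactions ran from −1.99 to −1.38 (CDX1, ActA by medium), −0.21 to 1.13 (CDX4, sorting by ActA), −7.20 to −3.35 (CDX2) and −4.16 to 2.91 (CDX4, both induction with ActA), and −1.16 to 0.16 (CDX1) and −3.08 to 4.00 (CDX4, both induction without ActA). The count of all genes called moved by over 1.5 times in 13 of 23 comparisons, among them the cjPSCM inductions, from 282 to 1351 with ActA and from 456 to 1884 without, the medium interactions of the induction, from 361 to 2113 with ActA and from 479 to 2616 without, the ActA by medium interaction, from 7 to 52, and the sorting by ActA interaction, from 1 to 27.

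The depth limits CDX values of 3 reads or fewer, which are most of those in cjiPSCs in cjPSCM and of CDX1 and CDX2 in somatic cells. A p that missed the threshold there does not show equal levels.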
